A study of Mus musculus with 12 samples.

Results

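The 10 core circadian clock genes Arntl, Clock, Per1, Per2, Per3, Cry1, Cry2, Nr1d1, Nr1d2 and Dbp were followed in mouse brain white matter, in RNA of the whole sample (input) and in RNA pulled down with tagged ribosomes (IP). They were chosen by gene symbol, are 10 of the 24060 genes listed in the count table, and all 10 had enough counts to be tested. All mice were male and carried Tie2-Cre and Rpl22-HA: Cre driven by the promoter of Tie2 (Tek) adds a hemagglutinin tag to the ribosomal protein Rpl22 in cells of the Tie2 lineage, which is chiefly endothelial and is also known to include blood cells. Animals 489, 555 and 556 were fed a control-fat diet (CFD) with 10% of kcal from fat, and animals 516, 517 and 676 a high-fat diet (HFD) with 60%. Each animal gave 1 input and 1 IP library, so the 12 libraries fell into 4 groups of 3. The study asked which endothelial pathways change with diet-induced obesity. The mice lived on a dark-light cycle and ate at will. The hour at which each animal was killed and the age of these animals are not given in the sources used here, so the part of the hour in any difference was not tested.

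The clock is a loop of transcription that turns once a day in almost every cell. ARNTL (also called BMAL1) pairs with CLOCK and switches on the Per and Cry genes, whose proteins return to the nucleus and silence the pair. The same pair switches on Nr1d1 and Nr1d2, which encode the REV-ERB repressors, and these hold Arntl down. In most tissues Arntl RNA therefore peaks when Nr1d1 and Dbp RNA is low, and the ratio of Dbp or Nr1d1 to Arntl in 1 sample moves with the hour of the day. Dbp is an output gene, a transcription factor that binds D-boxes, and Per1 is also known to respond quickly to glucocorticoids and other stimuli.

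The libraries held 19567186 to 33660708 counts. The ribosomal RNA gene Rn45s took 6.34% to 14.2% of the counts of the inputs, 38.7% to 42.3% of the CFD IPs and 17.1% to 19.1% of the HFD IPs. The defining endothelial markers were low in both fractions. Cldn5, a tight junction gene of brain endothelium, was at 0 in 4 of the 6 IPs and reached 3.95 CPM (counts scaled to the size of the library, in the usual unit) in the highest. The summed level of 8 endothelial genes was higher in the IP than in the input in 3 of 6 animals, and 7 of the 8 were at 0 in at least 1 library. It ranged from 8.97 to 35.7 CPM in the inputs and from 3.53 to 209.9 CPM in the IPs. The highest IP sum, in animal 556 on CFD, was mostly Egfl7 at 204.7 CPM, and the next highest was 65.9 CPM. The sum of 6 oligodendrocyte genes ranged from 2806 to 4687 CPM in the inputs and from 2791 to 6964 CPM in the IPs, and was higher in the IP in 5 of 6 animals. The sum of 6 neuron genes ranged from 7989 to 13780 CPM in the inputs, above every oligodendrocyte sum there, and from 6123 to 11200 CPM in the IPs. Their summed level was higher in the IP in 1 of 6 animals. That of the 5 astrocyte genes was higher in 5, of the 4 microglia genes in 3 and of the 4 blood genes in 0. Snap25 was the largest part of the neuron sum, at a mean of 7873 CPM in the CFD inputs and 4300 in the CFD IPs. Single neuron genes went both ways. In CFD, Syn1 had means of 856.3 CPM in the inputs and 1424 in the IPs, and Map2 of 902.2 and 612.1. The blood sum was nearly all Alas2. The IP values below are therefore given as those of the pulldown, not of endothelium. In bulk RNA, fewer cells of a type and less RNA per cell cannot be told apart.

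The letters that the clock proteins are known to read stand near the starts of several of these genes, and they are shown because the loop is known to act through them. RefSeq windows of 300 bases on GRCm38.p6, the assembly also called mm10, cover 250 bases before and 50 bases after a transcription start. There were 13 windows for 9 of the 10 genes, with Per2 the exception. Both strands were searched for the E-box CACGTG and the E-prime box CACGTT, bound by the ARNTL and CLOCK pair, for the D-box TTATGNAA, bound by DBP and its relatives, and for the ROR element ANTAGGTCA, bound by the REV-ERB and ROR proteins. The E-box and the E-prime box differ in their last letter, so no match counts as both. Each match is printed 5′ to 3′ on the strand of the gene, with the match in capitals and 10 bases on either side. The E-prime boxes below were matched on the opposite strand and so read AACGTG.
Per1 E-box, chr11:69098773-69098798, plus strand: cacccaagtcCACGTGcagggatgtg
Cry1 E-box, chr10:85185099-85185124, minus strand: tgccggtggtCACGTGgggtgcatgc
Cry1 E-prime box, chr10:85185118-85185143, minus strand: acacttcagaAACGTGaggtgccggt
Cry2 E-prime box, chr2:92434220-92434245, minus strand: acatggtgggAACGTGagggggcgga
Nr1d1 E-prime box, chr11:98775390-98775415, minus strand: cacagatctcAACGTGccggctgctg
Per1 D-box, chr11:69098915-69098942, plus strand: gggcctggcaTTATGCAAcccgcctccc
Per3 D-box, farther from the start, chr4:151044853-151044880, minus strand: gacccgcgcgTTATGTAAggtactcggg
Per3 D-box, nearer the start, chr4:151044806-151044833, minus strand: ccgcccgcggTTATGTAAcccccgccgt
Arntl ROR element, chr7:113207529-113207557, plus strand: gaaggcagaaAGTAGGTCAgggacggagg

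The E-box was found in 2 of the 13 windows of these genes, against 7.17% of all 32544 windows, and the E-prime box in 3 of 13, against 4.71%. The D-box was found in 2 of the 13 windows, those of Per1 and Per3, against 3.39% of all windows. The ROR element was found in 1 of the 13 windows, of Arntl, against 0.664% of all windows. The Per1 and Arntl matches lie in exons of those genes, before or after one of several annotated starts, while the Cry1, Cry2, Per3 and Nr1d1 matches lie upstream of the gene. A match is a description of letters, and the windows of Clock, Dbp and Nr1d2 held none of the 4 motifs in these 300 bases.

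Levels between genes were compared per length, as CPM per kb of the gene length that the authors used. Nr1d1 was the highest of the 10 genes per length in all 12 libraries. In the inputs it lay between 50.8 and 92.8 CPM per kb, with a median of 78.8, and in the IPs between 53.8 and 117.4, with a median of 81.9. Nr1d1 spans chr11:98767932-98775377 on the minus strand and shares 471 of its 2765 exon bases, or 17% of them, with Thra, a thyroid hormone receptor gene on the opposite strand that had 3136 to 6645 counts per library. Whether the counting used strand is not stated, so reads of that stretch are uncertain. Cry2 came second in all 6 inputs, at 26.2 to 57.0 CPM per kb, and Clock and Per1 followed at medians of 20.5 and 19.7 CPM per kb, which overlapped.

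Arntl was the lowest of the 10 per length in all 6 IPs, at 0.489 to 3.73 CPM per kb, and ranked 6th to 10th in the inputs, at 1.65 to 9.59 CPM per kb. The level of Nr1d1 per length was 8.57 to 43.5 times that of Arntl in the inputs, with a median of 21.6, and 21.9 to 240.2 times in the IPs. Between these ends, Nr1d2, Per2, Dbp, Per3 and Cry1 had input medians of 13.5, 7.20, 7.04, 6.39 and 4.42 CPM per kb, and the ranges of neighbours in this order overlapped. The order of the 10 genes was alike between inputs, with a Spearman rho over the 10 genes of 0.71 to 0.90 over 15 pairs of libraries, and between IPs, with 0.75 to 0.96. An IP and the input of the same animal gave 0.64 to 0.94. These are descriptions across genes within libraries, and genes are not independent replicates.

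**Figure D1:**
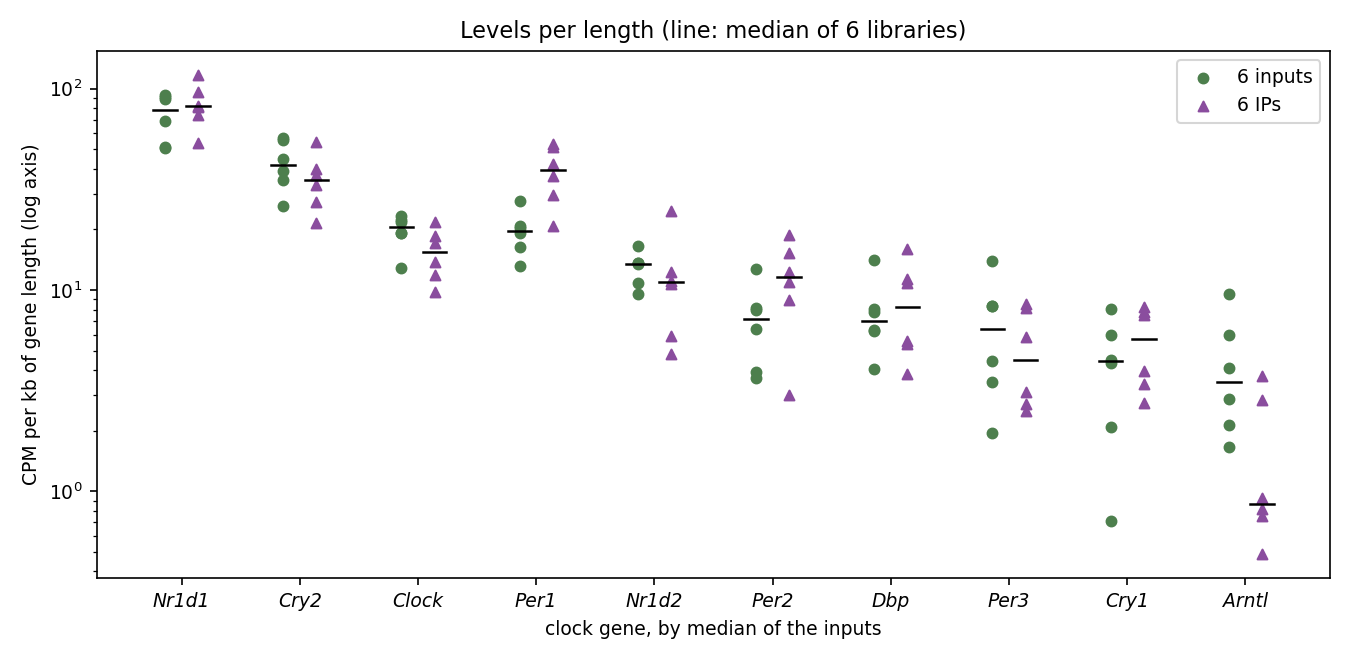
CPM per kb of gene length (log axis) of each clock gene in the 6 inputs (circles) and 6 IPs (triangles), with the median of each as a line. Nr1d1 is at the top in every library and Arntl, at a median of 0.870 CPM per kb in the IPs, at the bottom of the pulldown.

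Of the activators, Arntl differed widely from animal to animal and Clock little, with SDs of log2 CPM over the 6 inputs of 0.94 and 0.31. In the CFD inputs Arntl was at 4.81 CPM in animal 489, 27.9 in animal 555 and 11.9 in animal 556. In the HFD inputs it was at 6.20 CPM in animal 516, 8.36 in animal 517 and 17.4 in animal 676. The diets overlapped, and the highest input was 5.80 times the lowest. In the CFD IPs Arntl was at 2.69, 2.37 and 2.19 CPM, below every input, and in the HFD IPs at 1.42, 10.8 and 8.29 CPM, in the same order of animals. These IP values rest on 39 to 328 counts of Arntl per library. In CFD the fractions did not overlap in 15.2% of all genes. Clock, the partner of Arntl, was at 187.8, 217.4 and 227.6 CPM in the CFD inputs and 213.7, 187.8 and 126.2 CPM in the HFD inputs, again in that order. The CFD IPs held 214.2, 116.9 and 95.4 CPM of Clock and the HFD IPs 167.9, 134.5 and 181.2 CPM. Groups overlapped between diets in both fractions and between fractions in both diets.

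Of the repressors, only Per1 was higher in every IP than in the input of the same animal, a pattern not counted over all genes. Its inputs were at 128.5, 94.3 and 61.1 CPM in CFD and 76.5, 97.0 and 89.0 CPM in HFD. Its IPs were at 247.3, 138.2 and 239.0 CPM in CFD and 197.4, 172.5 and 96.9 CPM in HFD. The CFD fractions did not overlap, as in 15.2% of all genes, and in HFD only the IP of animal 676 fell inside the range of the inputs, just below the highest. Per2 was at 74.2, 37.3 and 22.9 CPM in the CFD inputs, 21.4, 47.4 and 46.7 CPM in the HFD inputs, 109.2, 52.3 and 17.7 CPM in the CFD IPs and 89.3, 71.8 and 64.2 CPM in the HFD IPs. The HFD IPs of Per2 lay above all HFD inputs, while its CFD fractions overlapped. In HFD the fractions did not overlap in 14.1% of all genes.

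Per3 and Cry1 had the widest spreads over the inputs, with SDs of log2 CPM of 1.03 and 1.25. Per3 was at 50.1, 20.9 and 49.8 CPM in the CFD inputs and 26.8, 11.6 and 83.2 CPM in the HFD inputs. Its IPs were at 15.0, 51.1 and 16.4 CPM in CFD and 18.6, 35.2 and 49.0 CPM in HFD. The 7.16-fold range of Per3 over the inputs was larger than the 2.10-fold range of Per1. Cry1 was at 13.1, 6.31 and 17.9 CPM in the CFD inputs and 2.14, 24.3 and 13.6 CPM in the HFD inputs, an 11.4-fold range. The low HFD value, in animal 516, rests on 77 counts. Cry1 in the IPs ranged from 8.29 to 24.8 CPM, a 2.99-fold range. Cry2, the more abundant cryptochrome, was at 222.4, 228.2 and 156.7 CPM in the CFD inputs and 141.2, 178.9 and 104.9 CPM in the HFD inputs, with IPs of 85.9 to 218.1 CPM. Its diets overlapped in both fractions.

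The REV-ERB genes and Dbp overlapped between all groups compared. Nr1d1 was at 191.3, 250.7 and 140.5 CPM in the CFD inputs and 256.6, 244.6 and 141.6 CPM in the HFD inputs. Its IPs were at 267.1, 204.4 and 148.6 CPM in CFD and 324.7, 225.2 and 227.8 CPM in HFD. Nr1d2 had the narrowest spread of the 10 genes over the inputs, 44.1 to 76.7 CPM with an SD of log2 CPM of 0.28, and a wider one over the IPs, 22.4 to 114.7 CPM with an SD of 0.84. Dbp was at 10.6, 12.98 and 6.82 CPM in the CFD inputs and 23.8, 13.5 and 10.6 CPM in the HFD inputs. Its IPs were at 26.7, 6.43 and 19.0 CPM in CFD and 18.1, 9.38 and 9.05 CPM in HFD. Dbp, at chr7:45705100-45710203 on the plus strand, shares 21.4% of its exon bases with Sphk2 on the opposite strand, which had 30 to 1729 counts per library, so that its counts carry the same doubt about strand as those of Nr1d1.

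**Figure D2:**
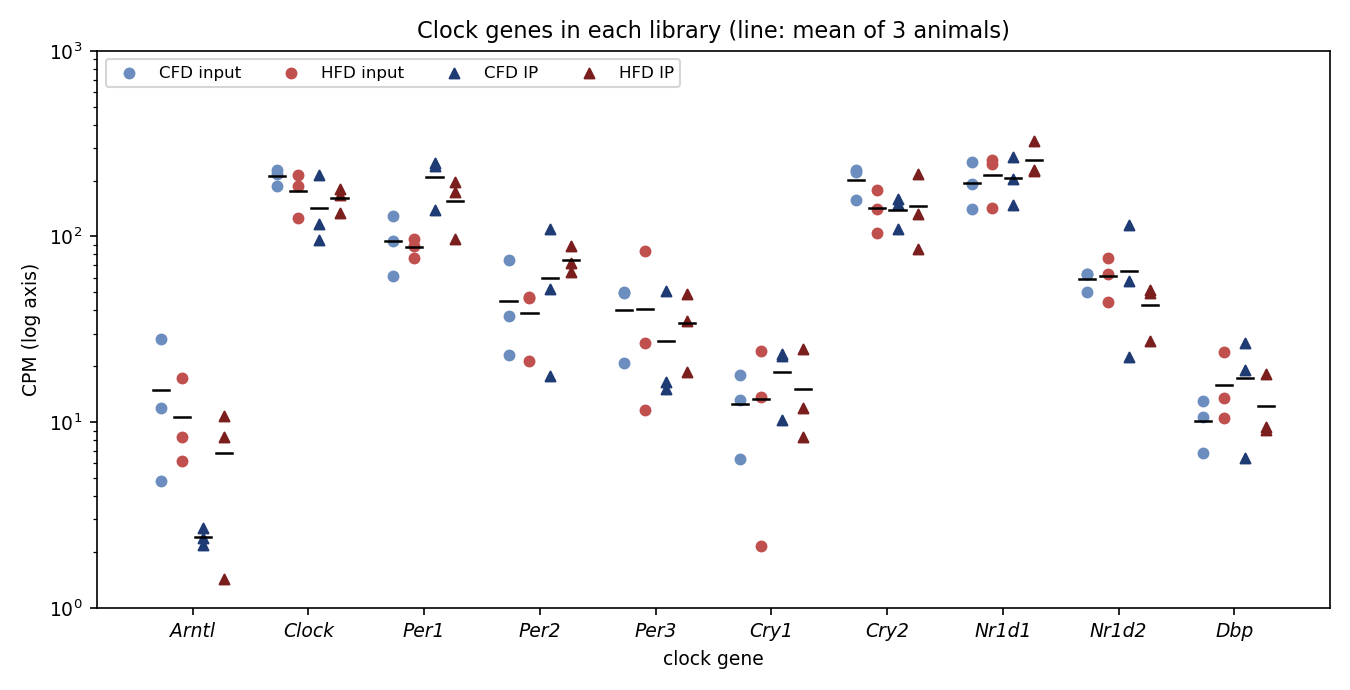
CPM (log axis) of each clock gene in every library by diet and fraction, with 1 point per animal and the mean of 3 as a line. In CFD the IPs of Per1 sit above its inputs, with means of 208.2 and 94.6 CPM, and those of Arntl below its inputs, with means of 2.41 and 14.9 CPM, and in HFD the IPs of Per2 sit above its inputs. Fractions did not overlap in 15.2% of all genes in CFD and in 14.1% in HFD.

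The balance between Arntl and the other members was also read as ratios of counts within a library, which no scaling between libraries can change. Where 0 lies in such a ratio is set by the lengths of both genes, so the ratios are compared between libraries and their sign is not read. The log2 ratio of Dbp to Arntl counts was 1.15, -1.10 and -0.80 in the CFD inputs and 1.94, 0.69 and -0.72 in the HFD inputs. It spanned 3.04, or 8.24-fold, over the 6 inputs, the counting error was at most 0.164 for any input, and the diets overlapped. The log2 ratio of Nr1d1 to Arntl was 5.31, 3.17 and 3.56 in the CFD inputs and 5.37, 4.87 and 3.03 in the HFD inputs, a range of 2.34 or 5.08-fold with a counting error of at most 0.138. Libraries of 1 group differed beyond counting noise over all genes as well, so a range wider than the counting error is not particular to the clock genes and does not show that the animals differed in the hour of the clock. Animals 489, 516 and 517 had the 3 highest values of both ratios, and animals 555, 556 and 676 the 3 lowest. Both ratios share the Arntl count, so this is not evidence from 2 independent measures.

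The diets did not separate in these ratios. The mean log2 ratio of Dbp to Arntl in the inputs was -0.25 ± 1.22 (SD, n = 3) in CFD and 0.64 ± 1.33 (SD, n = 3) in HFD. That of Nr1d1 to Arntl was 4.02 ± 1.14 in CFD and 4.42 ± 1.23 in HFD (SD, n = 3 each). In the IPs the log2 ratio of Dbp to Arntl ran from -0.21 to 3.67 and that of Nr1d1 from 4.38 to 7.83. The IP ratio of Nr1d1 was above the input ratio of the same animal in 5 of 6 animals, with animal 517 the exception, and the same held for Dbp. The other members gave wide ranges too, from 2.21 for Nr1d2 to 3.80 for Per3 in log2 ratio to Arntl over the inputs.

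**Figure D3:**
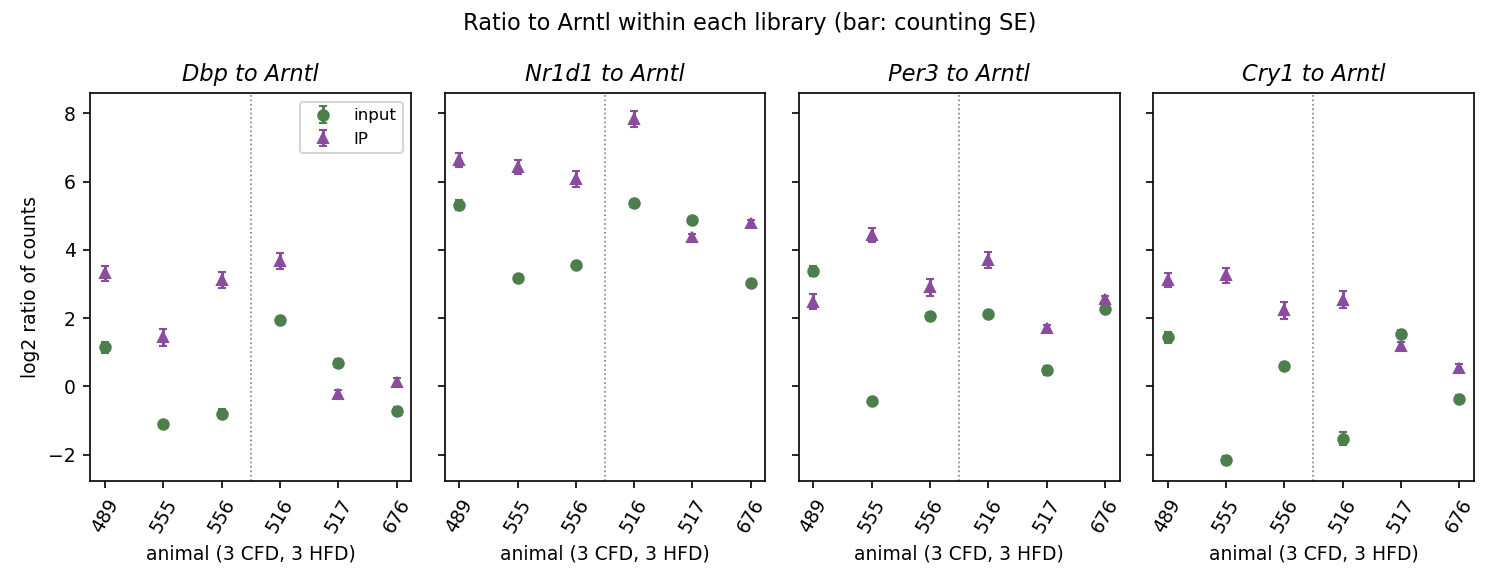
The log2 ratio of the counts of Dbp, Nr1d1, Per3 and Cry1 to those of Arntl in the input (circles) and IP (triangles) of each animal, 3 CFD then 3 HFD, with the counting standard error as a bar. The input ratios of Dbp run from -1.10 to 1.94, and the diets overlap.

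An opposite movement of Arntl and the genes it drives was not seen over the 6 inputs together. Pearson's r of log2 CPM between Arntl and Nr1d1 over the 6 inputs was -0.15 (exact permutation p = 0.78) and Spearman's rho -0.14 (exact permutation p = 0.80). For Arntl and Dbp, r was -0.26 (exact permutation p = 0.66) and rho -0.31 (exact permutation p = 0.56). Over the 9 pairs with Arntl, r ran from -0.26 to 0.06 and the lowest Benjamini-Hochberg adjusted p was 0.96. Without animals 489 and 555, whose Arntl was farthest from the median, r was -0.91 for Nr1d1 and -0.74 for Dbp over 4 inputs. Over the same 4 inputs r was -0.74 for Nr1d2, -0.62 for Cry2 and -0.70 for Clock, the partner of Arntl. It was -0.00 for Per1, 0.47 for Per2, 0.58 for Cry1 and 0.77 for Per3. The value of r thus rests on those 2 animals, and without them the genes that the pair drives went both ways. Centred on each diet, r was -0.12 for Nr1d1 and -0.21 for Dbp.

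Between any 2 of the 10 genes, 22 of 45 correlations over the inputs were positive, and the median r was -0.04. The highest was between Per1 and Per2, with r = 0.92 (exact permutation p = 0.013) and rho = 0.89 (exact permutation p = 0.033). Nr1d1 and Dbp had r = 0.80 (exact permutation p = 0.019) and rho = 0.94 (exact permutation p = 0.017). The lowest was between Per3 and Nr1d2, with r = -0.90 (exact permutation p = 0.015) and rho = -0.94 (exact permutation p = 0.017). None of the 45 passed Benjamini-Hochberg adjustment, and the adjusted p of these 3 was 0.29. Without the 2 animals farthest from the median of the first gene named, r was 0.89 for Per1 and Per2, 0.69 for Nr1d1 and Dbp and -0.57 for Per3 and Nr1d2. Centred on diet it was 0.92, 0.86 and -0.90. In the IPs the same 3 pairs had r of -0.12, 0.21 and -0.23 (exact permutation p = 0.82, 0.71 and 0.65).

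No relation between the level of a gene in the input and in the IP of the same animal was detectable with 6 animals. Over the 6 animals r ran from -0.56 for Clock to 0.56 for Per2, and the lowest adjusted p of the 10 exact permutation tests was 0.92. For Nr1d1 r was 0.55 (exact permutation p = 0.24) and rho 0.49 (exact permutation p = 0.36), and r fell to -0.09 without animals 556 and 676. For Per2 r rose to 0.99 without animals 556 and 516, and for Per3 it went from -0.20 to -0.83 without animals 517 and 676. The animals left out were the 2 farthest from the median input level of each gene.

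The spread of the clock genes was compared with that of all 14354 genes tested. Over the inputs 7 of the 10 had an SD of log2 CPM below the median of all tested genes, 0.85, with Arntl, Per3 and Cry1 above it. The median SD of the 10 was 0.51, beside 0.55 for the 8267 genes of 10 CPM or more. Over the IPs all 10 lay below the median of all tested genes, 1.38, and their median was 0.74, beside 0.90 for the genes of 10 CPM or more. Nr1d2, Clock, Per1, Nr1d1 and Cry2 were among the less variable genes of the inputs, at percentiles of 6.4, 8.7, 12.8, 17.3 and 18.9. These percentiles are over all tested genes, which include genes of low level with wider spreads, and were not matched on level.

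The effect of diet on the clock genes was not detectable in the inputs. By edgeR's quasi-likelihood test with Benjamini-Hochberg adjustment over all genes, 0 of the 10 had an adjusted p under 0.1 for HFD against CFD input, where 0% of all genes were called. Of the 10, 5 were fitted higher and 5 lower, and 0 had an unadjusted p under 0.05, against 292 of 14354 genes. The median absolute log2 fold change of the 10 was 0.18, beside 0.49 for all genes. Of the 14354 genes, 8267 had 10 CPM or more in the inputs, and no median for genes of like level was taken. The largest fitted values were 0.65 for Dbp, with a 95% interval of -1.26 to 2.56, and -0.52 for Cry2, with an interval of -1.28 to 0.25. Arntl was fitted at -0.48 with an interval of -2.90 to 1.93. The intervals were narrowest for Nr1d1, -0.57 to 0.85, and Clock, -0.99 to 0.46. None of the 10 genes had groups that did not overlap, while 10.4% of all genes did.

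In the pulldown, 0 of the 10 genes were called for HFD against CFD IP, where 0.0557% of all genes were, and 0 had an unadjusted p under 0.05, against 1565 genes. DESeq2 called 0 of the 10 in both diet comparisons, against 31 of 13798 genes for the inputs and 770 of 13295 for the IPs. The median absolute log2 fold change of the 10 was 0.33, beside 0.82 for all genes, again not matched on level. Arntl had the largest fitted value, 1.50 with a 95% interval of -0.97 to 3.97 (adjusted p = 0.64 by edgeR). The HFD IPs of Arntl in animals 517 and 676 were above all CFD IPs and that of animal 516 below them. Nr1d2 was fitted at -0.60 with an interval of -1.71 to 0.52, Dbp at -0.51 with an interval of -2.42 to 1.40, and Per1 at -0.42 with an interval of -1.21 to 0.37. The remaining 6 lay between -0.32 and 0.33. Groups did not overlap in 0 of the 10 genes and in 10.6% of all genes.

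Between fractions, Per1 had the smallest unadjusted p of the 10 genes in both diets, although the fitted change of Arntl in CFD and of Per2 in HFD was larger. In CFD its log2 fold change, IP against input, was 1.14 ± 0.38 (SE), or 2.20-fold with a 95% interval of 1.27 to 3.82 (unadjusted p = 0.0072, adjusted p = 0.27 by edgeR), so it was not called over all genes. In HFD it was 0.83 ± 0.38 (SE), or 1.78-fold with an interval of 1.03 to 3.08 (unadjusted p = 0.040, adjusted p = 0.73 by edgeR). The IP was higher than the input in 6 of 6 animals, from 1.09-fold in animal 676 to 3.91-fold in animal 556. How many of all genes had the same direction in all 6 animals was not counted, so this is a description of Per1. The difference between the diets was -0.31 with an interval of -1.42 to 0.81. DESeq2 called Per1 in CFD at a log2 fold change of 1.16 (adjusted p = 0.076), a test that called 6.03% of all genes in that comparison. Over all alternatives run, the adjusted p of Per1 in CFD ranged from 0.076 by DESeq2 to 0.65 by edgeR without animal 556.

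Arntl went the other way in CFD, at -2.62 ± 1.24 (SE), a 6.15-fold lower level in the IP (unadjusted p = 0.045, adjusted p = 0.41 by edgeR), and at -0.64 ± 1.17 (SE) in HFD (adjusted p = 0.98 by edgeR). It was lower in the IP than in the input of the same animal in 5 of 6 animals, with animal 517 the exception at 1.30-fold higher. Without animal 555, whose input was the highest, the CFD value was -1.76. Its difference between the diets was 1.98 with a 95% interval of -1.46 to 5.43 (adjusted p = 0.92 by edgeR). Per1 and Arntl were the 2 of 10 genes whose CFD fractions did not overlap, against 15.2% of all genes, and Per2 the 1 of 10 in HFD, against 14.1%. The CFD IPs were also the libraries with the most Rn45s, 38.7% to 42.3% of counts, and their part in these differences was not tested. With Rn45s and Lars2 left out before scaling, 0 of the 10 genes were called in either diet. As 0 were called with both kept, this count cannot show whether Rn45s had a part in the differences of Per1 and Arntl. Of the 14254 genes tested without them, 22 were called for CFD IP against input and 0 for HFD IP against input. With both kept, 27 and 2 of 14354 genes were called.

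Over all 10 genes, 0 were called for CFD IP against CFD input, where 0.188% of all genes were, and 2 had an unadjusted p under 0.05, against 1697 genes. For HFD IP against HFD input 0 were called, where 0.0139% of all genes were, and 1 had an unadjusted p under 0.05, against 935 genes. For the interaction of diet and fraction 0 were called, as 0% of all genes were, and 0 had an unadjusted p under 0.05, against 770 genes. DESeq2 called 0 of the 10 for HFD IP against input and for the interaction, against 160 of 1274 and 121 of 13798 genes. For HFD IP against input the 1274 genes given an adjusted p left out Per2, Per3, Cry1, Arntl, Nr1d2 and Dbp. The median absolute log2 fold changes of the 10 were 0.56, 0.33 and 0.50, beside 0.82, 0.68 and 0.91 for all genes, not matched on level. Per2 was higher in the IP in 5 of 6 animals, with a log2 fold change of 0.96 and a 95% interval of -0.28 to 2.21 in HFD. Clock was fitted at -0.57 in CFD with an interval of -1.30 to 0.16, and Nr1d1 at 0.09 with an interval of -0.62 to 0.80. Per3, Cry1 and Dbp had the widest intervals after Arntl in both diets, from -1.14 to 2.69 for Dbp in CFD.

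**Figure D4:**
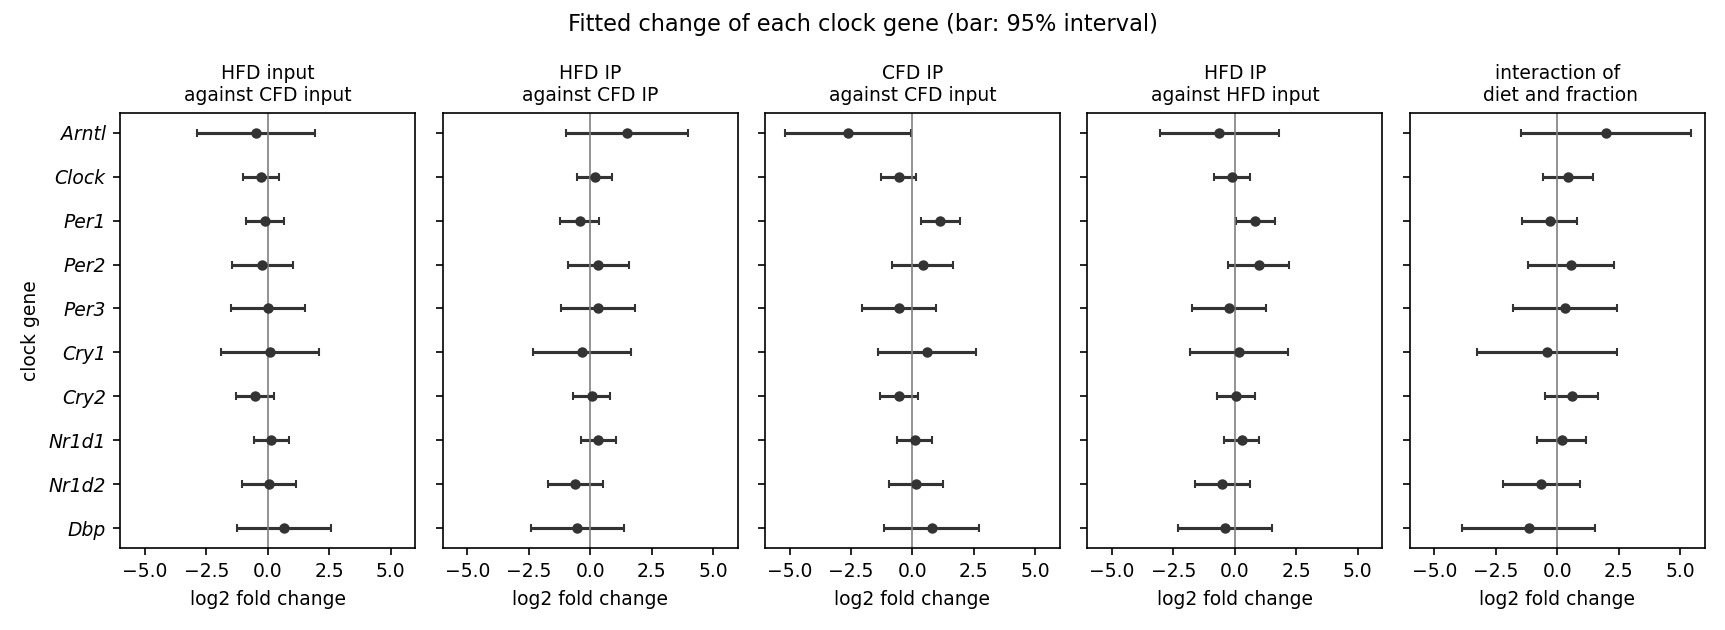
Fitted log2 fold change of each clock gene in the 5 comparisons with its 95% interval from edgeR. All intervals cross 0 except those of Per1 in both fraction comparisons and of Arntl in CFD, from -5.18 to -0.06, and none passed adjustment over all genes.

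**Figure D5:**
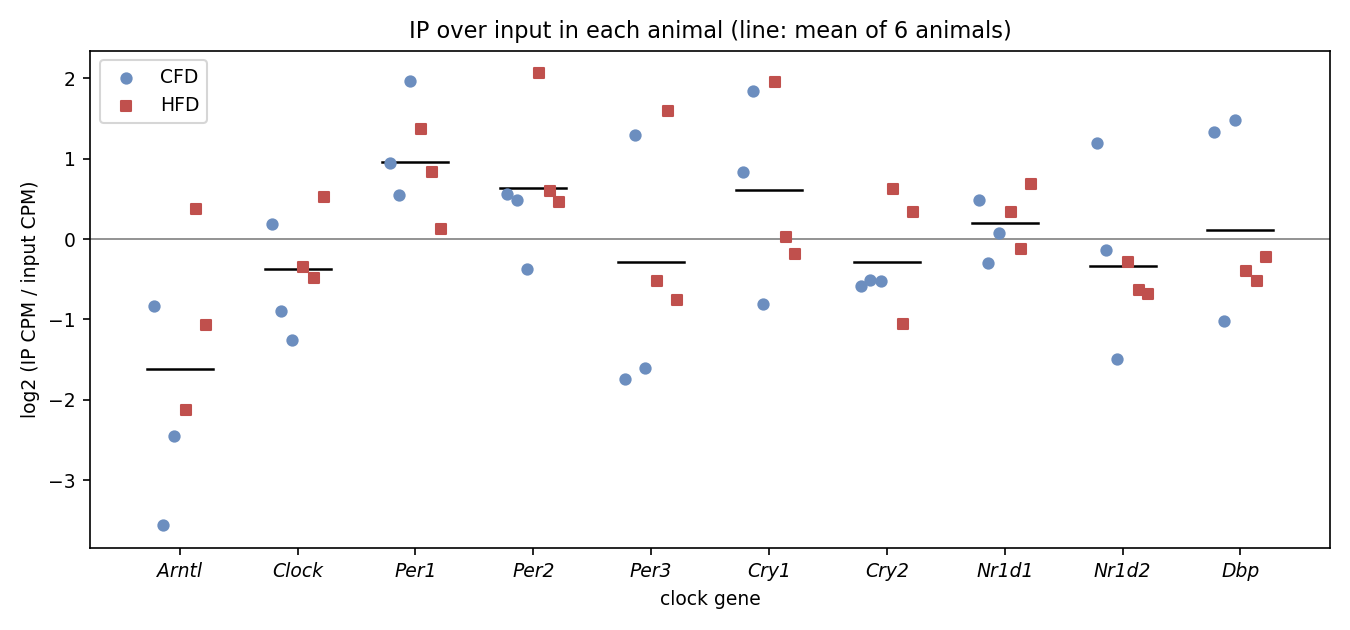
The log2 of IP CPM over input CPM of each clock gene in each of the 6 animals, by diet, with the mean as a line. Per1 is above 0 in 6 of 6 animals, from 0.12 to 1.97, and Arntl below 0 in 5 of 6. Such agreement was not counted over all genes.

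Of 19 other clock genes, which include the ROR activators, the relatives of DBP and the casein kinases that mark PER proteins for decay, 18 were tested and Timeless was too low. None was called in any of the 5 comparisons, where edgeR called 0% to 0.188% of all genes, and 3, 3 and 2 had an unadjusted p under 0.05 for HFD against CFD IP, for CFD IP against input and for the interaction. Tef, a relative of Dbp, had the smallest p. It was at 288.0, 340.7 and 272.1 CPM in the CFD IPs and 139.5, 109.8 and 118.7 CPM in the HFD IPs, beside 92.4 to 173.9 CPM in the inputs. The CFD IPs were thus above all other libraries, with a log2 fold change of -1.29 ± 0.32 (SE) for HFD against CFD IP and 1.01 ± 0.32 (SE) for CFD IP against input (adjusted p = 0.26 and 0.25 by edgeR). In these 2 comparisons the groups did not overlap in 10.6% and 15.2% of all genes. Csnk1e, a kinase of PER proteins, was at 42.5, 264.4 and 204.9 CPM in the CFD IPs and 48.7 to 81.1 CPM in the HFD IPs, with log2 fold changes of -1.39 and 1.50 in the same 2 comparisons (adjusted p = 0.36 and 0.27 by edgeR). The CFD IP of animal 489 was below all 3 CFD inputs, and those of animals 555 and 556 were above all other libraries. For HFD against CFD input the lowest p belonged to Btrc at -0.76 and Bhlhe40 at -0.53, both with an adjusted p of 1. For HFD IP against input they belonged to Fbxl21 at -3.62, on 0 to 1.89 CPM in the IPs, and Bhlhe40 at 0.63, with adjusted p of 0.77 and 0.84.

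Genes that report a hormone or handling stimulus were read beside Per1, which shares such inputs. The glucocorticoid targets Tsc22d3, Fkbp5 and Sgk1 and the immediate early gene Fos were called in 0 comparisons, where edgeR called 0% to 0.188% of all genes. Between diets, Fos was at 25.3, 11.1 and 10.3 CPM in the CFD IPs and 1.67, 1.29 and 7.95 CPM in the HFD IPs. These did not overlap, as in 10.6% of all genes. The log2 fold change of Fos was -2.10 (unadjusted p = 0.048, adjusted p = 0.45 by edgeR). Fos was lower in the IP in 6 of 6 animals, from 0.110-fold to 0.725-fold, while Per1 was higher in all 6. How many of all genes had the same direction in all 6 animals was not counted. The log2 fold change of Fos, IP against input, was -0.92 in CFD and -1.84 in HFD (adjusted p = 0.75 and 0.81 by edgeR). Fos in the input of animal 489, at 58.4 CPM, was the highest of the 6, the others lying at 8.11 to 15.8 CPM. That input was also the highest for Per1 and Per2, and for Fkbp5 at 41.8 CPM and Sgk1 at 114.7 CPM. Tsc22d3 was at 45.2 CPM there, below the 95.9 CPM of animal 555. This is 1 library, and the part of a stimulus was not tested. Tsc22d3 was lower in the IP in 5 of 6 animals, Sgk1 in 4 and Fkbp5 in 2.

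The genes most alike Dbp in log2 CPM over the 6 inputs, among 8219 genes of 10 CPM or more, were Ndufs7 (r = 0.992), Rpl35 (0.987), Vps41 (0.978), Rab30 (0.964) and Prdx6 (0.961). Those most alike Arntl were Spry4 (0.987), Zbtb38 (0.980), Cad (0.976), Fbxl20 (0.973) and Tank (0.971). These are the top of a long list over only 6 libraries, and are given as a description. No clock gene of the lists was among the genes searched.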

How the data were processed

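White matter of 6 male mice was profiled as input and IP, 1 library of each per animal. Reads were paired-end and, per the study's methods, aligned to mm10 with STAR; the submitters' processing notes also name HTSeq, and whether strand was used is not given in the sources used here. The labels and the methods name different library kits. The authors deposited whole-number counts per gene symbol, not normalized, and FPKM values per library, from which only the gene lengths were taken. A further 18 columns of per-sample values (normalized counts and log fold changes per animal) and the authors' own fold changes and p-values were not used.

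Counts were fitted in edgeR 4.0.16 (R 4.3.3) with 4 group means over all 12 libraries, TMM scaling and filterByExpr (minimum count 10, minimum total 15), which left 14354 genes. The quasi-likelihood test was adjusted by Benjamini-Hochberg over all genes, and an adjusted p under 0.1 was called, the threshold of the study. The SE was obtained from the log2 fold change and the F statistic, and intervals are 95% intervals from the t distribution. Log2 CPM for correlations and spreads used a prior count of 2. Correlations over 6 libraries had two-sided exact permutation tests, adjusted over 9, 10 and 45 pairs. Ratios to Arntl used counts as deposited, and their error and other intervals from counts cover counting error only. The edgeR fit and the correlation tests were run on simulated data, and the motif search was not. Known changes had to be recovered only where simulated replicates differed far less than these libraries, whose common coefficient of variation was 101.3%.

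The animal number pairs an IP with an input, since both came from 1 mouse. Deviations from group means of same-animal libraries correlated across genes at 0.0064 to 0.19, over 0.1 in 1 of 6 pairs. No 2 libraries of a group agreed within sampling noise (chi-square over its degrees of freedom 122.9 or more). Alternatives were RLE scaling, no filter, DESeq2 1.42.0, Rn45s and Lars2 left out, an adjusted p under 0.05, each animal left out, fits of just the 6 libraries compared, and a replicate block (fixed for IP against input and the interaction, and by limma 3.58.1 voom with duplicateCorrelation between diets). Named are all 10 clock genes, the 2 other clock genes with the smallest p in each comparison, 4 stimulus genes, and the 5 genes most alike Dbp and Arntl. Gene positions and windows are those of RefSeq on GRCm38.p6. The members and lists were chosen with earlier results of these data known.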

Additional observations from a re-analysis of the deposited data

How the results depend on the processing

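With any of the alternatives run with edgeR, or with limma for the block between diets, 0 of the 10 clock genes were called in any of the 5 comparisons. DESeq2 called 1, Per1 in CFD IP against input, and 0 elsewhere, with 6 of the 10 given no adjusted p for HFD IP against input. The number of all genes called moved more: HFD against CFD input 0 by edgeR, 3 with no filter and 31 by DESeq2, HFD against CFD IP 8, 219 and 770, CFD IP against input 27, 312 and 816, HFD IP against input 2, 79 and 160, and the interaction 0, 44 and 121. With the replicate block the fraction comparisons called 139 genes in CFD and 24 in HFD. Of 640 changes over all alternatives, 600 were counted as the same, 39 turned their direction and 1 became called. The 640 include the 50 of the main fit read at an adjusted p under 0.05, which could not turn or become called. A change given no adjusted p was counted by its direction alone. None of those that turned had a log2 fold change over 0.66 in size, and no change in a called direction was lost, since none was called. Leaving out 1 animal with both its libraries turned 32. For HFD input against CFD input the log2 fold changes ran Per1 from -0.35 to 0.16, Per2 from -0.54 to 0.34, Per3 from -1.07 to 0.45, Cry1 from -0.67 to 0.61, Arntl from -1.03 to 0.37, Nr1d1 from -0.05 to 0.37 and Nr1d2 from -0.13 to 0.25. For HFD IP against CFD IP the log2 fold changes ran Per2 from -0.10 to 1.08, Per3 from -0.03 to 1.13, Cry2 from -0.37 to 0.33, Clock from -0.03 to 0.58 and Nr1d2 from -1.0 to 0.08. For CFD IP against CFD input the log2 fold changes ran Nr1d1 from -0.15 to 0.33 and Nr1d2 from -0.66 to 0.59. For HFD IP against HFD input the log2 fold changes ran Per3 from -0.70 to 0.48, Cry1 from -0.07 to 0.37, Cry2 from -0.40 to 0.51 and Clock from -0.41 to 0.04. For the interaction of diet and fraction they ran Per1 from -0.63 to 0.05, Per3 from -0.17 to 1.42, Cry1 from -1.07 to 0.05, Nr1d1 from -0.05 to 0.41 and Nr1d2 from -1.10 to 0.13. For IP against input Per1 ran from 0.78 to 1.37 in CFD and from 0.52 to 1.09 in HFD, and Arntl did not turn in either.

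With the animal as a replicate block, 0 of the 10 were called. The direction turned for Per3 at -0.31 and Cry1 at -0.49 for HFD against CFD input, Cry2 at -0.04 for HFD against CFD IP, Nr1d2 at -0.14 for CFD IP against input, and Per3 at 0.07 and Cry2 at -0.02 for HFD IP against input. With Rn45s and Lars2 left out, Per3 was at -0.01 for HFD against CFD input. The causes were not tested. The range of the log2 ratio to Arntl was 3.88 for Dbp and 3.46 for Nr1d1 in the IPs in place of the inputs. Leaving out 1 animal, the range over the inputs was 2.25 to 3.04 for Dbp, lowest without animal 516, and 2.20 to 2.34 for Nr1d1. No correlation passed adjustment under RLE scaling, without Rn45s and Lars2 or centred on diet; the alternatives for the 45 pairs were chosen after seeing the data. Depth limits Arntl in the IPs most, with 39 counts in the lowest library.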
